A study of Mus musculus with 12 samples.

Results

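The genes described here are 58 ribosome biogenesis factors, the nucleolar and export proteins with which a cell makes new ribosomes. They were picked by symbol as known factors of the pathway, with earlier results of these data known, and all 58 were found among the 52015 genes of a deposited expression table. RNA-seq was performed on mpkCCD cells, a principal cell line of the mouse cortical collecting duct. Control cells (Scr) had been transduced with a non-targeting scramble guide RNA, and Nfat5-KO cells carried a CRISPR/Cas9 deletion of Nfat5, the transcription factor that induces osmoprotective genes when extracellular osmolality rises. Both genotypes were kept for 5 days in isotonic medium of 300 mosmol/kg or in hypertonic medium of 600 mosmol/kg, which was made with an added 100 mM NaCl and 100 mM urea. The 12 libraries fall into the groups Scr_300 and Scr_600 with 2 libraries each, and Nfat5-KO_300 and Nfat5-KO_600 with 4 libraries each. By the sample labels, each Nfat5-KO group has 2 libraries of knockout clone N1 and 2 of knockout clone N3. The deposited columns do not name the libraries that enter a group value. The knockout cells are clones, so traits of the clones and the loss of Nfat5 cannot be told apart here.

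The table gives 1 value per gene and group in FPKM, fragments per kilobase of transcript scaled to the mapped total, so that levels can be set side by side between genes of different length. It holds no value per library. The differences below therefore have no replicate check, no spread between libraries or clones and no test, and sequencing depth per library is unknown. A ratio is the log2 ratio of FPKM + 0.1, taken for genes with at least 0.5 FPKM in 1 of the groups compared, and a gene is called changed at 1.5-fold (0.585 on the log2 scale). In whole-culture RNA, fewer cells of a type and less RNA per cell cannot be told apart.

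Nfat5 itself had 5.61 FPKM in Scr_300, 7.93 in Scr_600, 3.47 in Nfat5-KO_300 and 6.88 in Nfat5-KO_600. Its transcript was thus lower in knockout than in control cells at both osmolalities, by a log2 ratio of -0.68 at 300 and -0.20 at 600 mosmol/kg, and was still present. A value over the whole gene does not check a deletion within it. The 4 epithelial markers, Epcam, Cdh1, Krt8 and Krt18, were all expressed and summed to 1492 FPKM in Scr_300, 1131 in Scr_600, 1370 in Nfat5-KO_300 and 952 in Nfat5-KO_600. Krt8 had 370.4, 244, 375 and 188 FPKM in the same order. Aqp2, the vasopressin-regulated water channel that defines principal cells, was at or under 0.245 FPKM in each group, and Avpr2, the vasopressin receptor, was at or under 0.0193 FPKM. The 8 principal cell markers summed to 9.79 FPKM in Scr_300, 8.66 in Scr_600, 20.5 in Nfat5-KO_300 and 46.4 in Nfat5-KO_600. Only 4 of the 8 reached 0.5 FPKM in a group, and Gata3 made up most of the last sum, at 30.0 FPKM. Gata3, Scnn1a and Hsd11b2 were highest in Nfat5-KO_600, while Aqp3 had 2.91, 2.07, 2.93 and 2.82 FPKM in the same order of groups. Epcam, Krt8 and Krt18 were lowest in Nfat5-KO_600, but Cdh1 had 79.8, 72.8, 103 and 84.1 FPKM in that order. In Nfat5-KO_600, where the biogenesis genes were lowest, the principal cell sum was thus highest and the epithelial sum lowest. Neither held for every marker, and the part of either sum in the levels of the biogenesis genes was not tested.

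Ribosomes are assembled in the nucleolus. RNA polymerase I (Pol I) transcribes a long precursor of ribosomal RNA (rRNA), small nucleolar ribonucleoproteins (snoRNPs) guide its chemical modification and folding, and separate sets of factors shape the small and the large subunit before both are exported to the cytoplasm. The work takes a large share of the energy of a growing cell, and the genes of the pathway are known to be expressed together, with growth and with nutrient supply. The 58 genes are taken below in this order: 7 of Pol I transcription, 8 of snoRNPs, 3 nucleolar proteins that act at several steps, 19 of the small subunit, 17 of the large subunit and 4 of export.

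All 58 genes were expressed in every group, none below the level of 0.5 FPKM. The median gene had 20.2 FPKM in Scr_300, 16.9 in Scr_600, 24.6 in Nfat5-KO_300 and 14.7 in Nfat5-KO_600. The FPKM of the 58 genes summed to 2051 in Scr_300, 1674 in Scr_600, 2165 in Nfat5-KO_300 and 1321 in Nfat5-KO_600. Nfat5-KO_300 had the highest level of 47 of the 58 genes and Nfat5-KO_600 the lowest level of 46, while among the 13414 genes that reached 0.5 FPKM anywhere, 25.9% and 32.8% had their highest and lowest level there. The order Nfat5-KO_300, Scr_300, Scr_600, Nfat5-KO_600, from high to low, held for 36 of the 58 genes (62.1%) and for 9.06% of the 13414. The number was 38 when each group was divided by a median-of-ratios factor and 29 when each group was rescaled to the same total (the TPM scale).

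**Figure D1:**
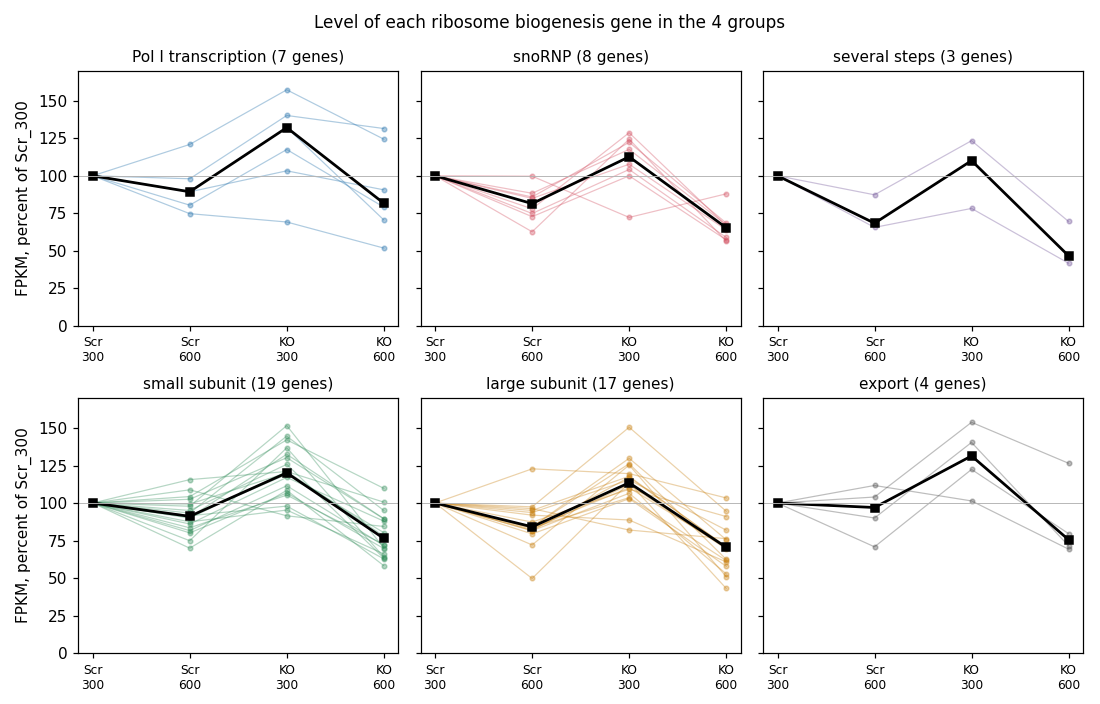
Level of each of the 58 genes in the 4 groups (KO stands for Nfat5-KO, with the osmolality in mosmol/kg) as a percentage of its own FPKM in Scr_300, by step. Thin lines are genes and black squares the median of a step. The thin lines join groups that are not a series. In each of the 6 panels the median is highest in Nfat5-KO_300 and lowest in Nfat5-KO_600.

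In control cells, 600 mosmol/kg was accompanied by slightly lower levels. Of the 58 genes, 50 were lower in Scr_600 than in Scr_300, against 54.6% of 12929 genes, and the median ratio was -0.19, against -0.04 for all genes. Only Mrto4, Gar1 and Npm1 were at least 1.5-fold lower, with none higher, where 9.01% of all genes were at least 1.5-fold lower, so that the share of called genes (5.17%) did not exceed the background. On the TPM scale, 38 of 58 were lower, against 40.3% of 16238 genes, and the median ratio was -0.0645, against 0.10 for all genes. Below the median of all genes lay 45 of the 58 ratios before rescaling and 47 on the TPM scale.

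In Nfat5-KO cells the same medium was accompanied by a much wider decrease. At 600 mosmol/kg 57 of the 58 genes were below their Nfat5-KO_300 level, against 52.9% of 12982 genes. Of these, 36 (62.1%) were at least 1.5-fold lower, against 13.8% of all genes, and none was at least 1.5-fold higher. The median ratio was -0.64, against -0.04 for all genes. Nop10 alone was higher, by 0.28. Rescaling to the same total moved the median of all genes in this comparison to 0.26 and that of the 58 genes to -0.40, with 52 lower and 17 called (29.3%, against 8.54% of all genes on that scale). In each of the 3 scalings, 57 of 58 ratios lay below the median of all genes.

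The difference of the responses, the ratio in Nfat5-KO minus the ratio in Scr, was negative for 56 of the 58 genes, against 52.0% of 13414 genes. It reached 1.5-fold for 18 genes (31.0%), against 8.75% of all genes, and its median was -0.47, against -0.01 for all genes. The exceptions were Nop10 at 0.29 and Taf1d at 0.00. On the TPM scale, 52 of 58 differences were negative, against 39.6% of 17476 genes, and 8 reached 1.5-fold (13.8%). That share was near the 10.3% of these genes, which are a wider set than the 13414 because the limit of 0.5 was applied after rescaling. The 2 responses share no group, and across the 58 genes Pearson's r between them was 0.657 and Spearman's rho 0.61. This describes genes, which are not replicates and come from the same libraries.

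**Figure D2:**
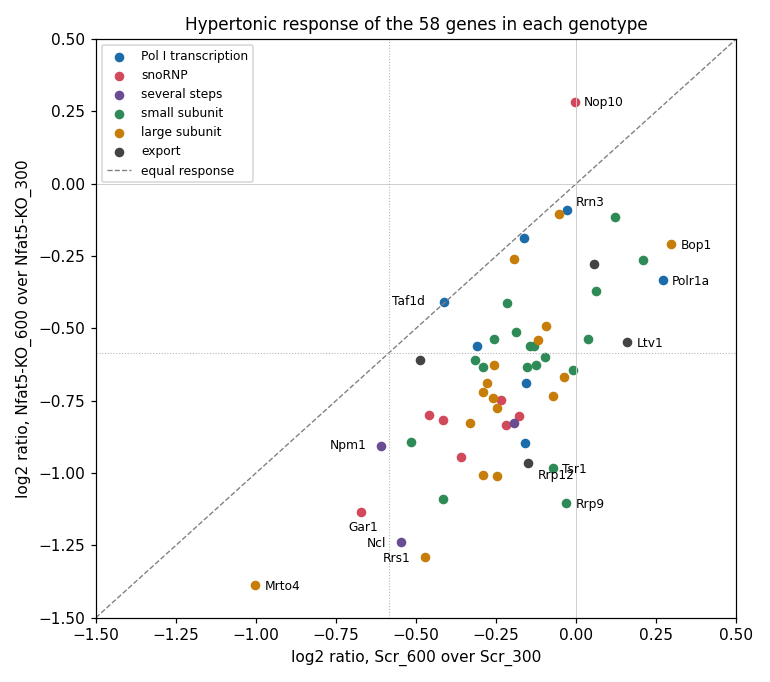
Log2 ratio of 600 over 300 mosmol/kg in Scr cells (x axis) and Nfat5-KO cells (y axis) for the 58 genes, coloured by step. Points below the dashed line had the more negative ratio in Nfat5-KO cells, and dotted lines mark 1.5-fold. Nop10 is the only point above 0 on the y axis, and 8 points lie right of 0 on the x axis.

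Each osmolality can also be compared between genotypes, with the same groups used again. At 300 mosmol/kg, 49 of the 58 genes were higher in Nfat5-KO than in Scr cells, against 49.8% of 12704 genes, with a median ratio of 0.23 against 0.00 for all genes. Polr1a, Lsg1, Rrp9 and Nop2 were at least 1.5-fold higher, a share of 6.90% against 5.27% of all genes. At 600 mosmol/kg, 49 of the 58 stood below the Scr level in knockout cells, against 52.2% of 13063 genes, with a median ratio of -0.24 against -0.02 for all genes. Ltv1, Npm1, Ebna1bp2 and Rrp1b were at least 1.5-fold lower, a share of 6.90% against 9.44% of all genes. The genotypes thus differed by small amounts in most of the genes at each osmolality, and the called shares were near the background in both comparisons. Genes above the Scr level at 300 and below it at 600 mosmol/kg in the knockout numbered 40, where 18.9% of 13414 genes had this pattern.

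Genes near the limit of 1.5-fold had the following ratios. In Scr cells, Npm1 was just past it at -0.61 and Ncl just short of it at -0.55. In Nfat5-KO cells, Heatr1 was past it at -0.60 and Utp4 short of it at -0.56. For the difference of the responses the pair was Nhp2 at -0.59 and Bysl at -0.57. Between genotypes it was Nop2 at 0.59 and Heatr1 at 0.53 at 300 mosmol/kg, and Rrp1b at -0.59 and Tsr1 at -0.58 at 600 mosmol/kg.

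The promoters of these genes were searched for 3 short motifs in the window from 250 bases before to 50 bases after the start, on both strands. RefSeq windows on GRCm38.p6 were at hand for 50 of the 58 genes. The E-box CACGTG, which MYC and related factors can bind, was present in 11 of the 50 (22%), in 11.9% of 9042 expressed genes and in 8.09% of all 27025 genes with a window. In 7 of the 11 genes it lay within the first 50 bases after the start (14.0% of the 50 genes, 1.96% of expressed genes). The part of the window before the start held it in 4 genes (8.0%, against 9.96% of expressed genes). The split at the start was chosen after the positions were seen. The 7 stretches after the start are shown because they share this position, and the one nearest before a start, from Rrn3, for comparison, 5′ to 3′ on the strand of the gene with the E-box in capitals.
Pes1 (chr11:3963965-3963994, plus strand, E-box from base 3 of the transcript): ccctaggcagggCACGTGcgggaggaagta
Utp4 (chr8:106893643-106893672, plus strand, from base 16): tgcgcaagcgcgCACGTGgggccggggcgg
Wdr43 (chr17:71616220-71616249, plus strand, from base 18): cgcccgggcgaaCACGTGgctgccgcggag
Tsr1 (chr11:74898092-74898121, plus strand, from base 25): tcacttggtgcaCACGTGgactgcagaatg
Ltv1 (chr10:13193092-13193121, minus strand, from base 29): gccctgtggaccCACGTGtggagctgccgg
Pno1 (chr11:17211540-17211564, minus strand, from base 38): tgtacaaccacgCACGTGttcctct
Utp20 (chr10:88826765-88826789, minus strand, from base 38): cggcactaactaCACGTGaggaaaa
Rrn3 (chr16:13780639-13780668, plus strand, from base -48): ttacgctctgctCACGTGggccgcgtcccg

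The 11 genes with an E-box had a median ratio in Nfat5-KO cells of -0.61, and the 39 without had -0.63. Among the 8 shown, the ratio in Nfat5-KO cells ran from -1.09 for Wdr43 to -0.09 for Rrn3. The core of the NFAT5 element, TGGAAA, was in 15 of the 50 windows (30.0%), in 19.0% of expressed genes and in 23.9% of all genes. The ETS motif CCGGAAGT was in 13 (26.0%), in 9.96% of expressed genes and in 4.31% of all genes. Genes with and without TGGAAA had median ratios in Nfat5-KO cells of -0.73 and -0.63, and genes with and without CCGGAAGT had -0.60 and -0.63. The motifs can occur together, as in Tsr1, which held all 3. A match describes letters and not a bound site.

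Transcription by Pol I was the step with the least negative median in Nfat5-KO cells, -0.41. All 7 genes were lower there, against 52.9% of all genes, and 2 of them were called (28.6%, against 13.8%). In Scr cells the median was -0.16, with 6 of 7 lower, against 54.6% of all genes. On the TPM scale 5 of the 7 remained below 0 in Nfat5-KO cells, against 32.4% of all genes. The median of Nfat5-KO_600 against Scr_600 turned from -0.02 to 0.10, while that of all genes went from -0.02 to 0.14. Under both scalings 4 of the 7 ratios between genotypes at 600 mosmol/kg lay below the median of all genes. Polr1b, which encodes a core subunit of the enzyme, had 12.6 FPKM in Scr_300, 11.3 in Scr_600, 16.7 in Nfat5-KO_300 and 8.92 in Nfat5-KO_600. It was thus highest and lowest in knockout cells, with a ratio of -0.90 there against -0.16 in Scr. Polr1a, the largest subunit, had 5.03, 6.09, 7.92 and 6.26 FPKM in the same order of groups. Unlike Polr1b it was lowest in Scr_300, and its response was 0.27 in Scr and -0.33 in Nfat5-KO cells. The third subunit of the set, Polr1e, had ratios of -0.31 and -0.56. Tcof1, which encodes the nucleolar scaffold treacle, had 27.7, 24.9, 36.6 and 22.7 FPKM, and was called lower at 600 mosmol/kg in knockout cells, with a ratio of -0.69 there and -0.16 in Scr. Rrn3 and Ubtf had ratios nearer to 0. Rrn3, the initiation factor that binds Pol I, had 16.8, 16.5, 23.6 and 22.1 FPKM, so it was higher in both knockout groups than in both Scr groups, with responses of -0.03 and -0.09. Ubtf, the architectural factor of ribosomal DNA, had 25.5, 22.8, 26.3 and 23.1 FPKM, with ratios of -0.16 and -0.19. Taf1d, a subunit of the promoter selectivity factor, had 8.76, 6.55, 6.06 and 4.54 FPKM. It differed from the rest in being lower in knockout cells at both osmolalities, by -0.52 each, with the same response of -0.41 in both genotypes.

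For the snoRNP proteins the median ratio was -0.81 in knockout and -0.30 in control cells. All but Nop10 were called lower in Nfat5-KO cells, 7 of 8 (87.5%, against 13.8% of all genes), under the main scaling. The box C/D core, which carries out ribose methylation of rRNA, consists here of the methyltransferase Fbl and the scaffold proteins Nop56 and Nop58. Their ratios in Nfat5-KO cells lay within 0.07 of each other, from -0.82 to -0.75. In the order Scr_300, Scr_600, Nfat5-KO_300 and Nfat5-KO_600, Nop56 had 52.3, 38.1, 52.3 and 30.0 FPKM, and Fbl had 30.6, 26.0, 32.9 and 19.6 FPKM. Both were close to the control level at 300 mosmol/kg and below it at 600. The box H/ACA core, which carries out pseudouridylation, was not as uniform. Its enzyme Dkc1 had 22.6, 19.9, 26.5 and 15.2 FPKM. Nhp2, an RNA-binding core protein, had 74.8, 58.3, 96.3 and 49.99 FPKM. Gar1, which joins the complex late, had 33.6, 21.0, 41.8 and 18.9 FPKM, and was called lower in both genotypes, with ratios of -0.67 in Scr and -1.14 in Nfat5-KO cells. These 3 proteins had the order Nfat5-KO_300, Scr_300, Scr_600, Nfat5-KO_600. Nop10, the smallest core protein, had 54.1, 54.0, 39.1 and 47.6 FPKM. It was thus lower in both knockout groups than in both Scr groups and lowest in Nfat5-KO_300, the group in which most of the set was highest. Within the complex the ratios in Nfat5-KO cells therefore spanned 1.42 on the log2 scale. Nolc1, the chaperone of both kinds of snoRNP, had 56.6, 48.6, 69.2 and 38.8 FPKM, with ratios of -0.22 and -0.83.

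**Figure D3:**
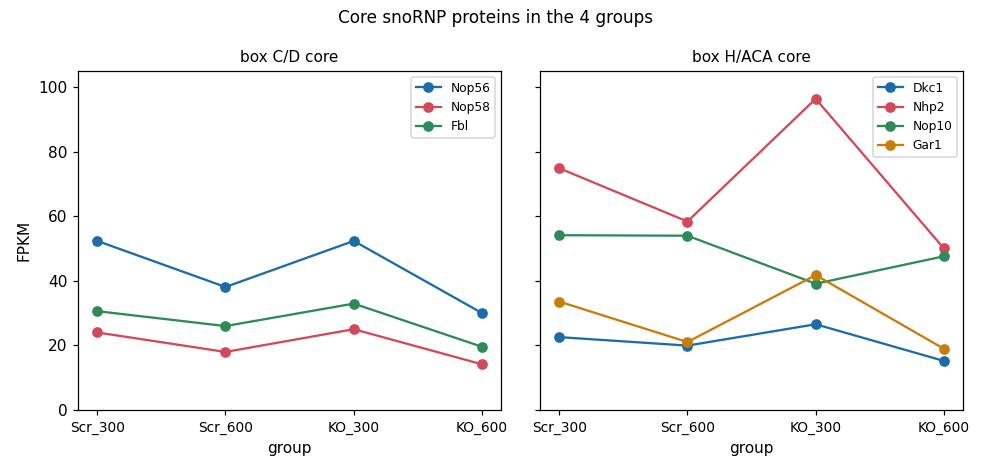
FPKM (y axis) of the core proteins of box C/D snoRNPs (left) and box H/ACA snoRNPs (right) in the 4 groups (x axis; KO stands for Nfat5-KO), 1 value per gene and group. The 3 box C/D genes follow each other, while Nop10 in the right panel is lowest in Nfat5-KO_300, where Dkc1, Nhp2 and Gar1 are highest.

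Some of these genes also carry snoRNA genes in their introns, which are released when the host transcript is spliced. By GENCODE M21 on GRCm38, 8 of the 58 genes hold 28 intronic snoRNA genes: Dkc1, Gnl3, Ncl, Nop56, Nop58, Taf1d, Tsr1 and Wdr43. The 5 below are box C/D guides from 5 hosts, shown 5′ to 3′ on the strand of the host as DNA letters, with the letters TGATGA of the C box and CTGA of the D box in capitals.
Snord82 (in Ncl, chr1:86356261-86356330, minus strand): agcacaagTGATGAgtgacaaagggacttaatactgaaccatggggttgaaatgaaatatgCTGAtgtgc
Snord110 (in Nop56, chr2:130275506-130275573, plus strand): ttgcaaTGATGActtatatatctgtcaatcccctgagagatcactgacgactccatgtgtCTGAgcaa
Snord11 (in Nop58, chr1:59704790-59704873, plus strand): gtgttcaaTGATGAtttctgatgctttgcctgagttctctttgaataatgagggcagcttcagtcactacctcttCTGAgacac
Snord69 (in Gnl3, chr14:31014287-31014366, minus strand): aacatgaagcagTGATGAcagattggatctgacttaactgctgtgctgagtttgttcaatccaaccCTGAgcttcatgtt
Snord92 (in Wdr43, chr17:71631281-71631365, plus strand): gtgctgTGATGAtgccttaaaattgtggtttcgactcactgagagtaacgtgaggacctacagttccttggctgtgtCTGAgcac

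The 8 host genes had a median ratio of -0.42 in Scr and -0.81 in Nfat5-KO cells, and the 50 others had -0.16 and -0.63. In Nfat5-KO cells 7 of the 8 hosts were called lower, and Taf1d at -0.41 was not. Of the 50 others 29 were called lower, and of all genes 13.8%. These are levels of the host messenger RNA. The snoRNAs themselves were not assessed, since libraries made from messenger RNA do not measure them.

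The 3 nucleolar proteins of several steps include Npm1 and Ncl, the highest of the set by mean FPKM over the 4 groups, although Rrp1 exceeded Ncl in both groups at 600 mosmol/kg. Npm1, the nucleolar chaperone nucleophosmin, had 472 FPKM in Scr_300, 310 in Scr_600, 369 in Nfat5-KO_300 and 197 in Nfat5-KO_600. It was lower in knockout cells at both osmolalities, and its responses were -0.61 and -0.91. Ncl, nucleolin, which binds nascent rRNA, had 142, 96.9, 156 and 66.1 FPKM, with responses of -0.55 and -1.24. The helicase Ddx21 had 68.8, 60.0, 84.9 and 47.8 FPKM, with responses of -0.20 and -0.83. All 3 were called lower in Nfat5-KO cells, against 13.8% of all genes. Npm1 has 8 pseudogene copies of at least 90% identity in the annotation, which had 177 FPKM in sum in Scr_300, so that reads may have been split between the gene and its copies and its level is uncertain.

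Small-subunit factors had a median ratio of -0.13 in Scr and -0.60 in Nfat5-KO cells, where all 19 were lower and 10 were called. On the TPM scale 18 of the 19 were lower in the knockout, against 32.4% of all genes. The Scr response on that scale split into 10 lower and 9 higher, where 40.3% of all genes were lower. Below the median of all genes lay 13 of the 19 Scr ratios before rescaling and 14 on the TPM scale. Rrp9, a protein of the U3 snoRNP that starts the processing of the small-subunit precursor, had 11.9, 11.6, 18.0 and 8.32 FPKM in the order Scr_300, Scr_600, Nfat5-KO_300 and Nfat5-KO_600. It was nearly level between the Scr groups, at -0.03, and lower by -1.10 in Nfat5-KO cells, so that its difference of -1.07 was the most negative of the 58 and the only one past 2-fold. Tsr1, a late assembly factor of the small subunit, was next, with 16.6, 15.7, 20.8 and 10.5 FPKM and responses of -0.07 and -0.98. Wdr43, which belongs to the first complex to join the precursor (UTP-A), had 39.7, 29.8, 54.3 and 25.5 FPKM. It was called lower in Nfat5-KO cells at -1.09 and was lower at -0.42 in Scr cells. The other UTP-A genes, Wdr75, Utp4, Utp15 and Heatr1, had ratios in Nfat5-KO cells between -0.64 and -0.56.

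Some other small-subunit genes had a small positive ratio in Scr and a negative one in Nfat5-KO cells. Noc4l, a partner of Nop14, had 28.9, 33.4, 35.0 and 29.1 FPKM, and its ratio was 0.21 in Scr and -0.27 in Nfat5-KO cells. Utp20, a large scaffold protein, had 9.60, 10.0, 13.7 and 10.5 FPKM, with ratios of 0.06 and -0.37. Bysl, a late assembly factor, had 13.6, 13.9, 17.6 and 12.1 FPKM, with ratios of 0.04 and -0.54. In all, 8 of the 58 genes (13.8%) were higher at 600 mosmol/kg in Scr and lower in Nfat5-KO cells. This share was near the 12.4% of 13414 genes with the pattern, and none of the 8 reached 1.5-fold in Scr cells. On the TPM scale the ratios of Bop1 and Imp3 in Nfat5-KO cells turned positive. Imp3, of the Mpp10 complex that binds U3, had 42.4, 46.2, 38.8 and 35.8 FPKM, the smallest change of the step in Nfat5-KO cells at -0.12. Its partners Imp4 and Mphosph10 had -0.56 and -0.54. Among enzymes that modify the small-subunit rRNA, the acetyltransferase Nat10 had a ratio of -0.63 in Nfat5-KO cells, and the methyltransferases Dimt1 and Emg1 had -0.51 and -0.41.

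The factors of the large subunit had a median ratio of -0.25 in Scr and -0.72 in Nfat5-KO cells, where all 17 were lower and 12 were called. On the TPM scale 15 of the 17 were lower in Nfat5-KO cells, against 32.4% of all genes. Mrto4, which holds the place of a stalk protein on the precursor, had 21.3 FPKM in Scr_300, 10.6 in Scr_600, 24.1 in Nfat5-KO_300 and 9.16 in Nfat5-KO_600. It had the most negative response of the set in both genotypes, -1.002 and -1.39, so the difference of -0.39 was smaller than the median of the set. The 2 annotated copies of Mrto4 had 7.13 FPKM in sum in Scr_300. Rrs1, an assembly factor of the large subunit, had 34.0, 24.5, 42.7 and 17.4 FPKM, with responses of -0.47 and -1.29. Nop16 had 36.6, 30.8, 46.2 and 22.9 FPKM, with responses of -0.25 and -1.01. Both were highest in Nfat5-KO_300 and lowest in Nfat5-KO_600. Ebna1bp2 had 24.5, 19.98, 26.1 and 13.0 FPKM, and was called lower in Nfat5-KO_600 than in Scr_600, at -0.62. Nop2, a methyltransferase of the large rRNA, had 38.2, 37.3, 57.6 and 36.2 FPKM. It was called lower in Nfat5-KO cells, at -0.67, and called higher in Nfat5-KO_300 than in Scr_300, at 0.59, while at 600 mosmol/kg the genotypes differed by -0.04.

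Members of one complex could differ in this step too. Bop1, Pes1 and Wdr12 form the PeBoW complex, which is needed for processing of the large-subunit precursor. Bop1 had 42.7, 52.5, 51.1 and 44.2 FPKM, and was highest in Scr_600, with a ratio of 0.30 in Scr and -0.21 in Nfat5-KO cells. Pes1 had 35.9, 28.5, 36.9 and 20.8 FPKM, with ratios of -0.33 and -0.83, and Wdr12 had -0.26 and -0.63. The difference of the responses was nonetheless similar in the 3 genes, from -0.51 to -0.37. Rrp1, among the most abundant transcripts of the set, had 107, 103, 87.4 and 81.3 FPKM, with ratios of -0.06 and -0.11. It was lower in both knockout groups than in both Scr groups. Its paralogue Rrp1b had 15.3, 14.1, 13.6 and 9.30 FPKM, with ratios of -0.12 and -0.54. Of the nucleolar GTPases, Gnl2 and Gnl3 had ratios of -0.49 and -0.74 in Nfat5-KO cells, and Gnl3l had -0.26.

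The 4 export factors had negative ratios in knockout cells, with a median of -0.58 and 2 called, and split evenly in Scr cells, with a median of -0.05 that turned to 0.08 on the TPM scale. Rrp12, which serves the export of both subunits, had 12.3, 11.1, 17.3 and 8.80 FPKM, with responses of -0.15 and -0.97. Nmd3, the adaptor that carries the large subunit out of the nucleus, had 6.43, 4.55, 7.87 and 5.12 FPKM, with similar responses of -0.49 and -0.61. Lsg1, the GTPase that releases Nmd3 in the cytoplasm, had 8.27, 8.60, 12.7 and 10.5 FPKM. It was higher in both knockout groups than in both Scr groups, and its responses were 0.06 and -0.28. Ltv1, which acts in export and maturation of the small subunit, had 34.8, 38.9, 35.3 and 24.1 FPKM. It was level between genotypes at 300 mosmol/kg and had the most negative ratio of the set between genotypes at 600 mosmol/kg, -0.69.

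**Figure D4:**
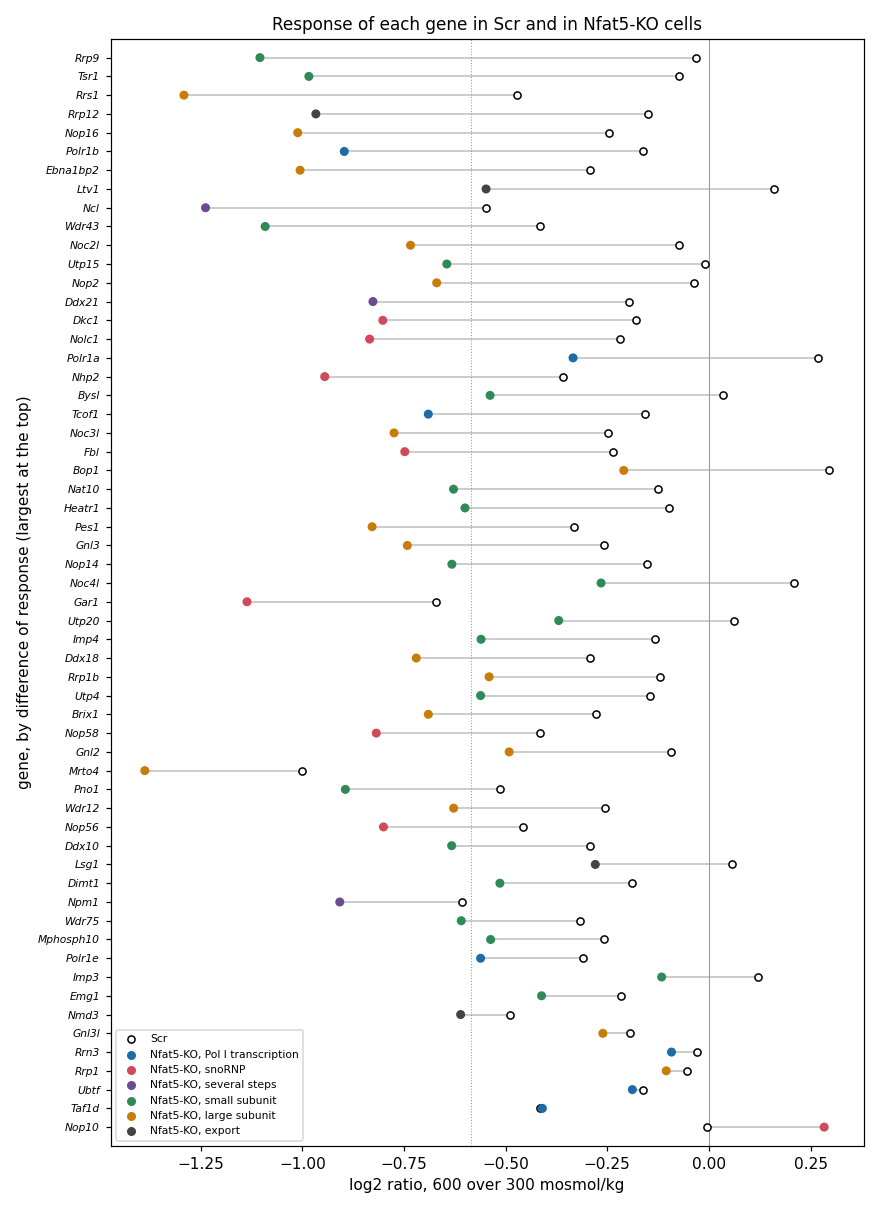
Log2 ratio of 600 over 300 mosmol/kg (x axis) in Scr cells (open circles) and Nfat5-KO cells (filled circles, coloured by step) for each of the 58 genes (y axis), with the largest difference between genotypes at the top. The dotted line marks 1.5-fold lower. Rrp9 and Tsr1 head the list, and Taf1d and Nop10 close it.

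The rest of the pathway was read from a list of 115 further genes, of which 112 passed the limit of 0.5 FPKM. Of these, 102 had a negative ratio in knockout cells, with 46 called lower (41.1%, against 13.8% of all genes) and 1 called higher, and the median ratio was -0.52. In Scr cells 83 were lower and 6 were called (5.36%, against 9.01% of all genes), with a median of -0.18. The difference of the responses was negative for 103 of the 112, with a median of -0.33, and the 14 called lower (12.5%) were near the 8.75% of all genes. The lowest ratios in Nfat5-KO cells were those of Rpp40 (-2.08) and Rpp38 (-1.03), subunits of the nucleases RNase P and RNase MRP, and of Rcl1 (-1.02), a factor of the small subunit. Rpp40 had 2.63 FPKM in Scr_300, 1.20 in Scr_600, 3.37 in Nfat5-KO_300 and 0.719 in Nfat5-KO_600, the same order of groups as most of the 58 genes. The highest were those of Znrd1 (1.36), a small subunit of Pol I, Diexf (0.54), a nucleolar protein of the small subunit, and Pih1d1 (0.54), which helps to assemble snoRNPs. Znrd1 had 19.7, 32.3, 18.9 and 48.5 FPKM, so this Pol I gene was higher at 600 mosmol/kg in both genotypes. So were Polr1c (0.26 in Scr and 0.14 in Nfat5-KO cells) and Twistnb (0.09 and 0.49). The other 7 of the 10 Pol I genes in this list were lower in Nfat5-KO cells. Among the 58 genes, Polr1b and Polr1e were lower in both genotypes.

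Cytosolic ribosomal protein genes differed from the biogenesis factors in the Scr response under the main scaling. The 80 cytosolic ribosomal protein genes had a median ratio of -0.57 in Scr and -0.65 in Nfat5-KO cells. Called lower were 38 in Scr (47.5%, against 9.01% of all genes) and 51 in Nfat5-KO cells (63.7%, against 13.8%), where 1 was called higher. Their median difference of the responses was -0.07, with none called, where 8.75% of all genes were called lower. The 58 biogenesis genes had -0.47 and 18 called (31.0%). Ribosomal protein genes were read under the main scaling only. At 300 mosmol/kg the median ratio between genotypes was -0.12 for the cytosolic ribosomal protein genes, against 0.23 for the biogenesis genes. The 77 mitochondrial ribosomal protein genes had medians of -0.20 and -0.37 and a median difference of -0.15. Their Scr median was close to the -0.19 of the biogenesis genes, and 2.60% of them were called lower in Scr cells, against 9.01% of all genes. Cytosolic ribosomal protein genes have many processed copies in the mouse genome, and their levels are uncertain for that reason.

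**Figure D5:**
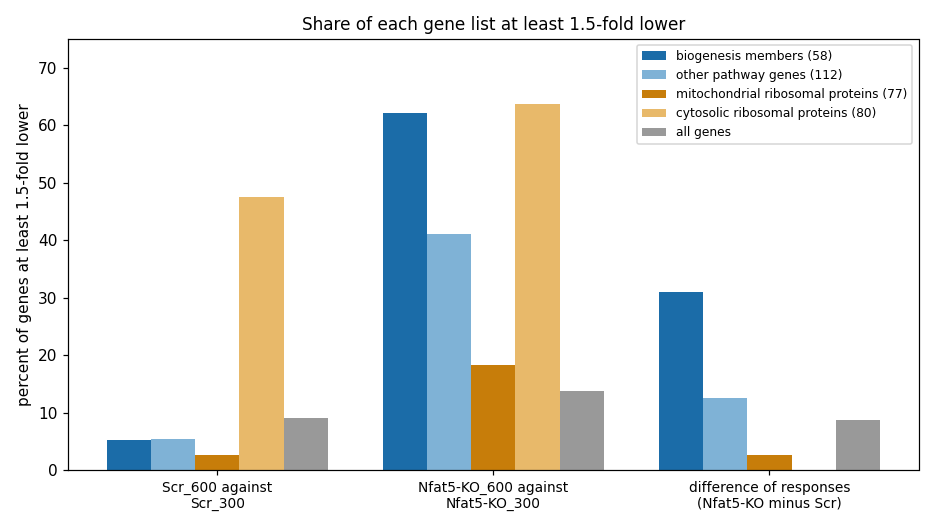
Percentage of genes at least 1.5-fold lower (y axis, from 0) in 3 comparisons (x axis) for the 58 biogenesis genes, 112 other genes of the pathway, 77 mitochondrial and 80 cytosolic ribosomal protein genes, and all genes compared. The biogenesis genes stand at 5.17% in Scr and 62.1% in Nfat5-KO cells, and the cytosolic ribosomal proteins at 47.5% and 63.7%.

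The 58 genes lie on 19 chromosomes, with at most 7 on one. Subtracting the median ratio of the other genes within the same 20-Mb window gave a median between genotypes of 0.20 in place of 0.23 at 300 mosmol/kg, and of -0.21 in place of -0.24 at 600 mosmol/kg. Copies and overlaps bear on counting: 15 of the 58 have a pseudogene copy, 22 share exon bases with a gene on the opposite strand and 2 with a gene on the same strand, and 27 have none of these. Whether counting used strand is not given in the sources used here. The 27 had median ratios of -0.16 in Scr and -0.61 in Nfat5-KO cells and a median difference of -0.42. The 15 genes with a pseudogene copy had medians of -0.33 and -0.83 and a difference of -0.43. The 43 without a copy had -0.15, -0.61 and -0.48. Mrto4, Gar1 and Npm1, the 3 genes called in Scr cells, all have a copy. Of the 43, 0 were called there, against 9.01% of all genes. The part of the copies in these ratios was not tested. Across the 58 genes, the ratio in Nfat5-KO cells had a Pearson correlation of 0.018 with log2 transcript length and of -0.035 with GC content, and of -0.151 with log2 mean FPKM. For the Scr response the correlation was 0.171 with length and 0.25 with GC content. For the difference of the responses it was -0.139 and -0.283. Over 10926 genes, GC content had correlations of 0.224 with the Scr response and -0.076 with the difference. The part of GC content in these responses was not tested.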

How the data were processed

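Total RNA of 12 mpkCCD cultures was used for poly(A)-selected RNA-seq libraries. The authors removed low-quality reads, aligned the rest to the mouse genome GRCm38 (mm10) by HISAT2, obtained gene counts by HTSeq and deposited FPKM values, 1 per gene and group. How libraries were joined into a group value, the tool versions and the annotation release are not given in the sources used here, and depth per library is unknown. Of 54839 rows, 2436 without a value, 311 exact duplicates and 37 symbols with several rows were left out, leaving 52015 genes. Groups were taken from the sample labels.

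Log2 ratios of FPKM + 0.1 were calculated for 4 comparisons and for the difference of the hypertonic responses. Genes with at least 0.5 FPKM in 1 of the groups compared were kept and called at 1.5-fold. Planned tests needed values per library and were not run, so no p-value was calculated. The ratio steps were tested on simulated data. The members, the lists and the rule for named genes were chosen with earlier results of these data known. Every member was counted. Values in all groups were given for Nfat5, the 8 members with the highest mean FPKM, the 2 largest decreases and the smallest change per step in Nfat5-KO cells, the 6 largest differences of response, members called in Scr cells and members against the direction of their step, and ratios for the 3 lowest and 3 highest other pathway genes. Fbl, Nop56, Dkc1, Ebna1bp2, Nop2, Pes1 and Rrp1b were added for complexes, calls or paralogues after their values were seen. Positions, overlaps and snoRNA genes came from GENCODE M21, promoter windows from RefSeq (GRCm38.p6), and pseudogene copies (at least 90% identity over 200 bases) from minimap2 2.31-r1302. Calculations used pandas 2.3.3 and numpy 2.4.6 in Python 3.11.15, and plots matplotlib 3.10.9. Alternatives were another pseudocount, filter, scaling and limit of calls, genes without copies or overlaps, and a correction for neighbouring genes.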

Additional observations from a re-analysis of the deposited data

How the results depend on the processing

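No paired analysis was possible because the columns carry 1 value per group and no replicate numbers, and for the same reason no library or clone could be left out. Median-of-ratios factors, pseudocounts of 0.01 and 1 FPKM, a filter on the mean (1 FPKM) and the absence of a filter moved no median of the 58 genes by 0.1 or more and no count of called genes by more than 1.5 times, except that with a pseudocount of 1 FPKM 0 genes, instead of 4, were called higher in Nfat5-KO_300 than in Scr_300. Rescaling each group to the same total (TPM scale) had the widest effect. It moved the median of all genes from -0.04 to 0.26 in Nfat5-KO_600 against Nfat5-KO_300, from -0.02 to 0.14 in Nfat5-KO_600 against Scr_600, from -0.04 to 0.10 in Scr_600 against Scr_300 and from -0.01 to 0.12 for the difference of the responses. The medians of the 58 genes were then -0.40, -0.12, -0.0645 and -0.36, with 17 (29.3%), 0, 1 (1.72%) and 8 (13.8%) called lower in the same order. Of all genes on that scale, 8.54%, 9.65%, 9.53% and 10.3% were called lower. Relative to the median of all genes, the 58 genes stood at -0.67 in Nfat5-KO cells on that scale and at -0.60 before it. The medians of all genes are here over different sets of genes, so these distances are not directly comparable. No median over all 58 genes and no called gene changed sign under any of these settings. On the TPM scale the medians of 2 steps did, from -0.02 to 0.10 for Pol I transcription and from -0.08 to 0.05 for export in Nfat5-KO_600 against Scr_600, and from -0.05 to 0.08 for export in Scr_600 against Scr_300. At 2-fold, 1 gene was called lower in Scr cells (1.72%, against 2.86% of all genes), 8 in Nfat5-KO cells (13.8%, against 4.11%), 0 between genotypes at 600 mosmol/kg (against 3.68%) and 1 for the difference (1.72%, against 3.16%), and 0 were called higher at 300 mosmol/kg (against 1.73%). Only the count in Nfat5-KO cells exceeded the share of all genes. Among the 27 genes without a copy or an overlap, a smaller set by construction, 0 were called in Scr cells (against 9.01% of all genes). In Nfat5-KO cells 15 were called (55.6%, against 13.8%). Between genotypes 2 were called at each osmolality (7.41%, against 5.27% at 300 and 9.44% at 600 mosmol/kg), and 8 for the difference (29.6%, against 8.75%). With 1 value per group, a difference between libraries or between clones N1 and N3 could not be seen.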
